A study of Rattus norvegicus with 21 samples.

Results

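The proteasome subunit genes were followed in rat liver across every dose of piperonyl butoxide (PBO, an insecticide synergist) and dammar resin (DAM, a plant resin). Members were the genes whose single platform symbol begins with Psma, Psmb, Psmc, Psmd or Psme and a digit, and this gave 41 of 14217 genes with their own symbol, on 55 of 31099 probe sets. Where a gene had several probe sets, the one with the highest mean over the 21 arrays was taken, as was needed for 9 genes. In the PBO study, 12 male Sprague-Dawley rats were dosed by mouth for 7 days, in groups of 3 that received methyl cellulose alone or PBO in it at 500, 1000 or 1500 mg/kg. The DAM study held 9 male Fischer344 rats, 3 on the basal diet and 3 on each of the 2% and 5% diets, equivalent to 800 and 2000 mg/kg, for 28 days. Age was not given, and the labels name no genetic modification. Livers were stored in RNAlater (PBO) or liquid nitrogen (DAM), so compound, strain, route, duration and storage differ together between the studies and cannot be told apart.

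The 26S proteasome degrades proteins that carry ubiquitin chains. Its 20S core is a barrel of alpha rings, which gate the entrance, and beta rings, which hold the proteolytic sites, and its 19S cap recognises, unfolds and feeds in the substrate by means of an ATPase ring and a set of non-ATPase subunits. Interferons induce alternative catalytic subunits that form the immunoproteasome, and the activators of the Psme family can replace the cap. Vertebrate cells are known to transcribe the standard subunits in concert when proteasome activity falls short, mainly through the transcription factor Nfe2l1.

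Of the 41 genes, 7 encode alpha-ring subunits, 6 standard beta-ring subunits, 6 cap ATPases and 11 cap non-ATPases, together 30 standard 26S subunits. A further 3 encode immunoproteasome subunits and 3 encode activators. The remaining 5 match the symbol rule without being stable subunits, namely the assembly chaperones Psmd5, Psmd9 and Psmd10 and the partner proteins Psmc3ip and Psme3ip1. Psmb6 and Psme3 share every probe set with other symbols and are not described. All 41 genes passed the filter on low signals in both studies.

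Each array reported scaled signals with a trimmed mean between 500.2 and 500.3. Median signals were 94.3 to 114.1 in the PBO study and 76.0 to 86.2 in the DAM study. The hepatocyte markers (7 of 8 measured) had summed signals of 205831 to 361502 over all arrays, so every liver showed its defining genes. The log2 ratio of 3' to 5' signal, a sign of RNA quality, was 0.095 to 0.254 for Gapdh in the PBO study and 0.605 to 1.01 in the DAM study. For Actb it was 1.51 to 1.66 in PBO controls, 1.383 to 1.499 at 500, 1.25 to 1.32 at 1000 and 1.25 to 1.48 at 1500 mg/kg, so that every dosed PBO animal lay below the controls, and it was 2.48 to 3.29 in the DAM study, where controls and dosed animals overlapped. Its part in the rise of the proteasome genes with PBO was not tested. PBO 1500 replicate 3 lay farther from its group mean than any other array, with a root mean square deviation of 0.495, against 0.355 and 0.368 for the other 2 animals of that dose. Some counts and some single values are also given without it, and the others with it only. In a whole liver, fewer cells of a type and less RNA per cell cannot be told apart.

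Standard proteasome genes rose together at the highest dose of each compound. At 1500 mg/kg PBO, 32 of the 41 genes were higher and 1, Psmb9, was lower (limma, Benjamini-Hochberg adjusted p under 0.05 over all 18625 probe sets tested), where 8.08% of all probe sets were higher and 9.26% lower. The median change of the 41 genes was 0.87 on the log2(signal + 16) scale, or 1.83-fold, against -0.08 for all probe sets tested. At 2000 mg/kg DAM, 31 of the 41 genes were higher, where 6.22% of all probe sets were higher and 6.11% lower, and the median change was 0.49, or 1.41-fold, against -0.04. No gene passed as lower at that dose, and none had an unadjusted p under 0.05 in that direction (14.2% of all probe sets), whereas 33 did upward (12.5%). Signals did not overlap between dosed and undosed animals for 33 genes upward and 2 downward at 1500 mg/kg PBO (14.4% and 19% of all probe sets), and for 33 upward and 1 downward at 2000 mg/kg DAM (14.2% and 16.6%). Scaling each array to its median instead moved the median of all probe sets by 0.12 at 1500 mg/kg PBO and 0.10 at 2000 mg/kg DAM. The share of higher among all calls then went from 46.6% to 63.0% and from 50.4% to 73.9%, while the median changes of the 41 genes became 1.00 and 0.60.

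**Figure D1:**
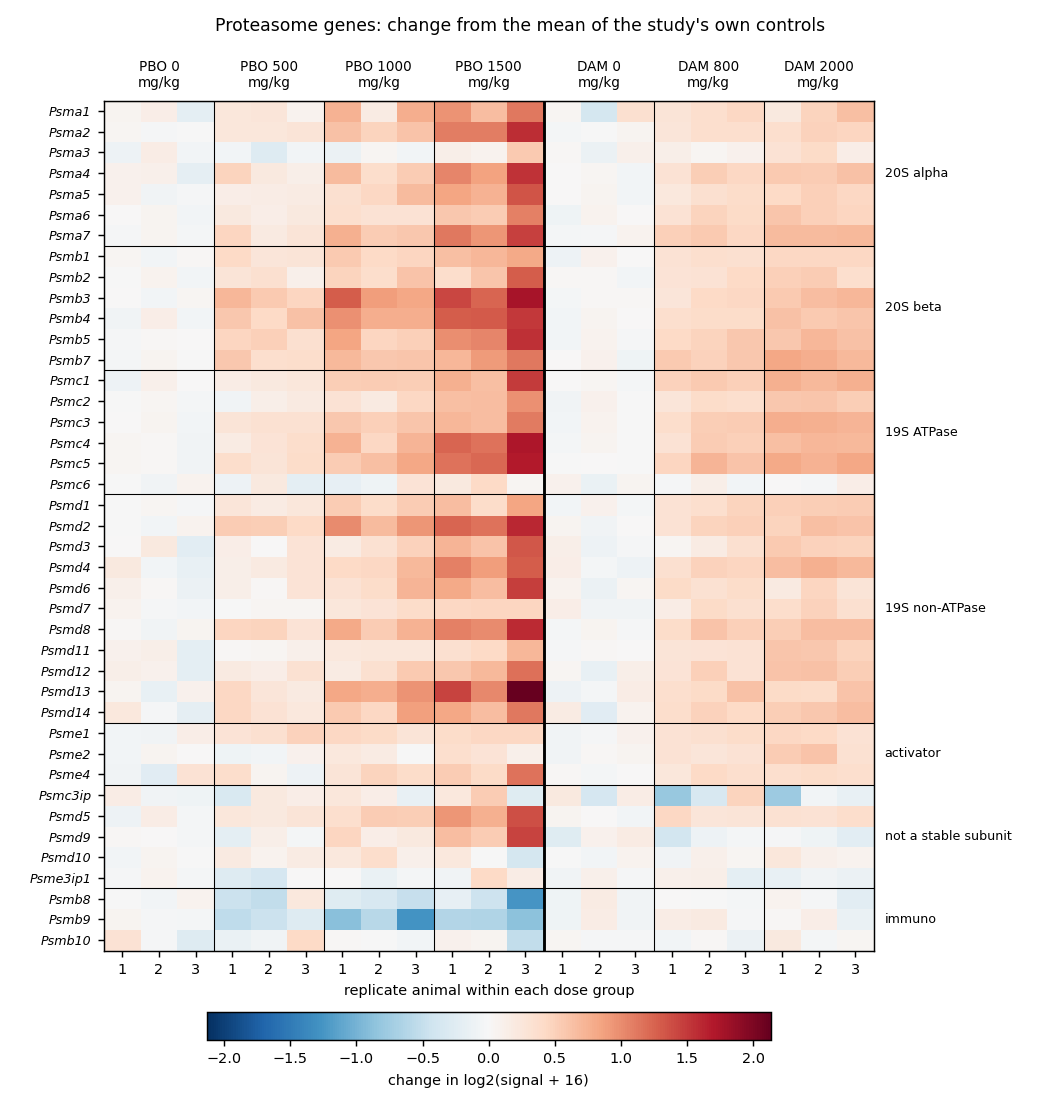
Change of each of the 41 proteasome genes in each of the 21 animals, in log2(signal + 16), from the mean of the 3 controls of the same study (red higher, blue lower; rows grouped by role, columns by dose group, with the replicate number below). The standard subunits deepen in red with dose in both studies, most of all in PBO 1500 replicate 3, while the immunoproteasome rows at the bottom are mostly blue or pale.

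All 6 standard beta-ring genes rose with both compounds, by 0.72 to 1.48 at 1500 mg/kg PBO and by 0.44 to 0.76 at 2000 mg/kg DAM. Signals are given in the order of the replicate numbers, on the linear scale of the deposited table, and are not compared between genes because each probe set has its own scale. Psmb5 encodes the subunit with the chymotrypsin-like site, the main target of proteasome inhibitor drugs. Its signals were 6662, 6870.1 and 6822 without PBO, 9349, 9616 and 8583 at 500 mg/kg, 12158, 9374 and 9697 at 1000 mg/kg, and 13446, 13895 and 19951 at 1500 mg/kg. In the DAM study they were 5908, 6504 and 6038 on the basal diet, 8222, 8511 and 9184 at 800 mg/kg, and 9198, 10033 and 9531 at 2000 mg/kg. All dosed animals lay above all controls of their study, 500 and 1000 mg/kg PBO overlapped, and the third animal at 1500 mg/kg stood far above the other 2. The change was 1.19 ± 0.15 (SE, n = 3 per group), or 2.28-fold, at 1500 mg/kg PBO (limma adjusted p = 0.000175) and 0.64 ± 0.07, or 1.56-fold, at 2000 mg/kg DAM (adjusted p = 7.8e-05).

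Psmb7 encodes the subunit with the trypsin-like site. Across the PBO groups it read 6104, 6537 and 6225 without PBO, 9321, 8088 and 8166 at 500 mg/kg, 10105, 9387 and 9462 at 1000 mg/kg, and 10306, 11812 and 13699 at 1500 mg/kg. Across the DAM groups it read 1594, 1691 and 1488 on the basal diet, 2357, 2239 and 2366 at 800 mg/kg, and 2835, 2724 and 2576 at 2000 mg/kg. Within each study the dose groups did not overlap at any step, and the levels on this probe set were far lower in the DAM study as a whole. It rose 1.88-fold (0.91 ± 0.11, SE, adjusted p = 0.000168) at 1500 mg/kg PBO and 1.7-fold (0.76 ± 0.08, adjusted p = 3.76e-05) at 2000 mg/kg DAM.

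Psmb4 and Psmb3 encode structural beta subunits without a proteolytic site. Psmb4 had the smallest adjusted p of the 41 genes at 1500 mg/kg PBO. Its signals were 7407, 8560.0 and 7474 without PBO, 11631, 10459 and 12007 at 500 mg/kg, 15348, 13263 and 13300.4 at 1000 mg/kg, and 19052, 19269 and 22169.5 at 1500 mg/kg. With DAM they were 7695, 8325 and 8005 on the basal diet, 10243, 10460.4 and 10504 at 800 mg/kg, and 12324, 11791 and 12104 at 2000 mg/kg. No 2 dose groups of a study overlapped, and the 1500 mg/kg animals lay close together in comparison with their distance from the controls. Psmb4 rose 2.58-fold (1.37 ± 0.11, SE, adjusted p = 6.36e-06) with PBO and 1.51-fold (0.59 ± 0.06, adjusted p = 4.15e-05) with DAM. For Psmb3 the PBO study gave 6309.9, 6026 and 6458 without PBO, 10211, 9236 and 8608 at 500 mg/kg, 15348, 11572 and 11095 at 1000 mg/kg, and 16771, 14875 and 21278 at 1500 mg/kg. The DAM study gave 5196, 5468 and 5426 on the basal diet, 6437, 7224 and 7290.3 at 800 mg/kg, and 7942, 8425 and 8783 at 2000 mg/kg for this gene. Here the first animal at 1000 mg/kg PBO lay within the range of the 1500 mg/kg group, and all other pairs of dose groups were apart. The changes of Psmb3 were 1.48 ± 0.15 (2.78-fold, adjusted p = 3.88e-05) and 0.64 ± 0.07 (1.56-fold, adjusted p = 8.8e-05) at the 2 highest doses. The other beta genes, Psmb1 and Psmb2, changed by 0.72 and 0.76 with PBO and by 0.44 and 0.47 with DAM. Psmb2 changed by 0.49 with PBO when PBO 1500 replicate 3 was left out.

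In the alpha ring, 6 of 7 genes rose at 1500 mg/kg PBO and 5 of 7 at 2000 mg/kg DAM, with changes between 0.25 and 1.25 and between 0.29 and 0.68. Psma2 was measured at 5802, 5566 and 5629.8 without PBO, 6698, 6686 and 6860.4 at 500 mg/kg, 8750.3, 7889.6 and 8682 at 1000 mg/kg, and 12053, 12095 and 16789 at 1500 mg/kg. In the DAM study its signals were 4149.8, 4226 and 4423 on the basal diet, 5104, 5481 and 5483 at 800 mg/kg, and 5480.1, 5993 and 5868 at 2000 mg/kg. The PBO groups were apart at every step, while 800 and 2000 mg/kg DAM overlapped above the controls. Psma2 rose 2.38-fold with PBO (1.25 ± 0.12, SE, adjusted p = 3.57e-05) and 1.35-fold with DAM (0.44 ± 0.07, adjusted p = 0.00106). Psma7 signals were 5454, 5793 and 5368 without PBO, 7632, 6358 and 6692 at 500 mg/kg, 9389, 8063 and 8271 at 1000 mg/kg, and 12042, 10600.3 and 15204 at 1500 mg/kg. Its DAM signals were 4377, 4393 and 4705 on the basal diet, 6413, 6589.7 and 6085 at 800 mg/kg, and 7165, 7187 and 7294 at 2000 mg/kg. Every dose group stood apart from the next in both studies. The rise of Psma7 was 2.25-fold (1.17 ± 0.13, adjusted p = 8.3e-05) and 1.61-fold (0.68 ± 0.06, adjusted p = 2.45e-05). Psma3 was the alpha gene that passed with neither compound, at 0.25 ± 0.15 (adjusted p = 0.262) and 0.29 ± 0.09 (adjusted p = 0.0656). The Psma3 probe set used is the one that carries its symbol alone, since another is shared with a Psma3-like gene. Its DAM change passed without DAM 2000 replicate 3 (0.36, adjusted p = 0.0405) and under median scaling (0.40, adjusted p = 0.024). Psma1 had a change of 0.44 ± 0.15 with DAM that did not pass (adjusted p = 0.0843), and its undosed DAM animals ranged from 4079 to 6741; it passed without DAM 0 replicate 3 (0.61, adjusted p = 0.0171) and under median scaling (0.55, adjusted p = 0.0182), and its change was 0.25 (adjusted p = 0.242) without DAM 0 replicate 2.

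The cap ATPases form the ring that unfolds substrates and opens the core, and 5 of 6 rose with each compound, all but Psmc6. Psmc5 read 2350.3, 2332 and 2164 without PBO, 2963, 2757 and 3009 at 500 mg/kg, 3309.6, 3581 and 4048 at 1000 mg/kg, and 5098, 5343 and 7353 at 1500 mg/kg. With DAM it read 2319, 2363 and 2329.8 on the basal diet, 3204, 3863 and 3549.6 at 800 mg/kg, and 4097, 3936 and 4147 at 2000 mg/kg. No dose groups of either study overlapped, and the rise was 2.55-fold with PBO (1.35 ± 0.14, SE, adjusted p = 4.14e-05) and 1.73-fold with DAM (0.79 ± 0.08, adjusted p = 3.03e-05). Psmc4 signals were 3764, 3732 and 3457 without PBO, 4101, 4483 and 4723 at 500 mg/kg, 6069.9, 4966 and 6048 at 1000 mg/kg, and 8587, 8130.2 and 12086 at 1500 mg/kg. On DAM they were 2598, 2770.5 and 2654 on the basal diet, 3310.5, 3878 and 3807 at 800 mg/kg, and 4166, 4378 and 4322 at 2000 mg/kg. These groups were also apart at every step, with changes of 1.37 ± 0.14 (adjusted p = 5.56e-05) and 0.68 ± 0.08 (adjusted p = 9.18e-05).

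Psmc1 and Psmc3, ATPases whose tails dock into the alpha ring, had the smallest adjusted p-values of the 41 genes at 2000 mg/kg DAM. For Psmc1 the DAM signals were 1973, 2023 and 1925 on the basal diet, 2771, 2913 and 2800.4 at 800 mg/kg, and 3338, 3197 and 3334 at 2000 mg/kg. The PBO signals of Psmc1 were 2570.2, 2966 and 2774 without PBO, 3092, 3211 and 3265 at 500 mg/kg, 3971, 4049 and 3978 at 1000 mg/kg, and 4659, 4305 and 7783 at 1500 mg/kg. Both sets of groups were apart throughout, and PBO 1500 replicate 3 had a far higher Psmc1 signal than the other 2 animals at its dose. Psmc1 rose 1.66-fold with DAM (0.73 ± 0.07, SE, adjusted p = 1.91e-05) and 1.94-fold with PBO (0.96 ± 0.17, adjusted p = 0.00261). Psmc3 had DAM signals of 3722, 4078 and 3848 on the basal diet, 5006, 5591 and 5629.7 at 800 mg/kg, and 6613, 6596 and 6448 at 2000 mg/kg. Its PBO signals were 3511, 3641 and 3346 without PBO, 4256, 4379.5 and 4366 at 500 mg/kg, 5195, 4985 and 5247 at 1000 mg/kg, and 5698, 5525 and 7586 at 1500 mg/kg. No 2 dose groups of a study overlapped here either. Psmc3 rose 1.69-fold with DAM (0.75 ± 0.07, adjusted p = 2.41e-05) and 1.77-fold with PBO (0.82 ± 0.12, adjusted p = 0.000524). Psmc6, in contrast to its ring partners, changed by 0.22 ± 0.15 with PBO (adjusted p = 0.34) and by 0.04 ± 0.08 with DAM (adjusted p = 0.808). Its 3 probe sets all missed the threshold at 1500 mg/kg PBO, and 1 of them passed at 2000 mg/kg DAM with a change of 0.41.

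All 11 non-ATPase genes of the cap rose with both compounds, by 0.46 to 1.53 with PBO and 0.31 to 0.70 with DAM at the highest doses. Psmd2 encodes a scaffold on which ubiquitin receptors and shuttle proteins dock. Its signals were 2616, 2523 and 2762 without PBO, 3822, 3801 and 3551 at 500 mg/kg, 5313, 4199.8 and 5072 at 1000 mg/kg, and 6264, 5904 and 8018 at 1500 mg/kg. The DAM animals gave 3535, 3229 and 3400.5 on the basal diet, 4218, 4708 and 4836 at 800 mg/kg, and 4733, 5283 and 5171 at 2000 mg/kg. All PBO steps were apart, and 800 and 2000 mg/kg DAM overlapped. Psmd2 rose 2.52-fold (1.34 ± 0.13, SE, adjusted p = 3.28e-05) with PBO and 1.49-fold (0.58 ± 0.08, adjusted p = 0.000373) with DAM. Psmd8 is a lid subunit, and its signals were 4821, 4533 and 4926 without PBO, 6573, 6597 and 5846 at 500 mg/kg, 8318, 6963 and 7952 at 1000 mg/kg, and 9993, 9561 and 14300.2 at 1500 mg/kg. Its DAM signals were 3308, 3555 and 3337 on the basal diet, 4445, 5189 and 4823 at 800 mg/kg, and 4889, 5383 and 5356 at 2000 mg/kg. It showed the same order of groups as Psmd2, with changes of 1.22 ± 0.14 (adjusted p = 0.000115) and 0.61 ± 0.08 (adjusted p = 0.000225).

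Among the other cap genes, the ubiquitin receptor Psmd4 changed by 1.09 and 0.70, and Psmd14, the deubiquitinase that removes chains before degradation, by 0.87 and 0.59, with PBO and DAM respectively. Psmd7, the inactive partner of Psmd14, had the smallest PBO change of the non-ATPases at 0.46. The lid gene Psmd13 had the largest PBO change of the 41 genes, 1.53 ± 0.21 or 2.89-fold (adjusted p = 0.000437), against 0.47 ± 0.11 with DAM (adjusted p = 0.0117), and its animals are given because of that rank, seen in the data. Its 1500 mg/kg signals of 2766, 2064 and 4466 were spread widely, above controls of 1056, 906 and 1073. The lid gene Psmd11 changed by 0.49 with PBO, and it no longer passed once PBO 0 replicate 3 was left out (0.38, adjusted p = 0.0623). The Psmd6 change with DAM, 0.31 ± 0.08, lost its call without any one of DAM 0 replicates 2 and 3 and DAM 2000 replicates 2 and 3, with values of 0.23 to 0.33.

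**Figure D2:**
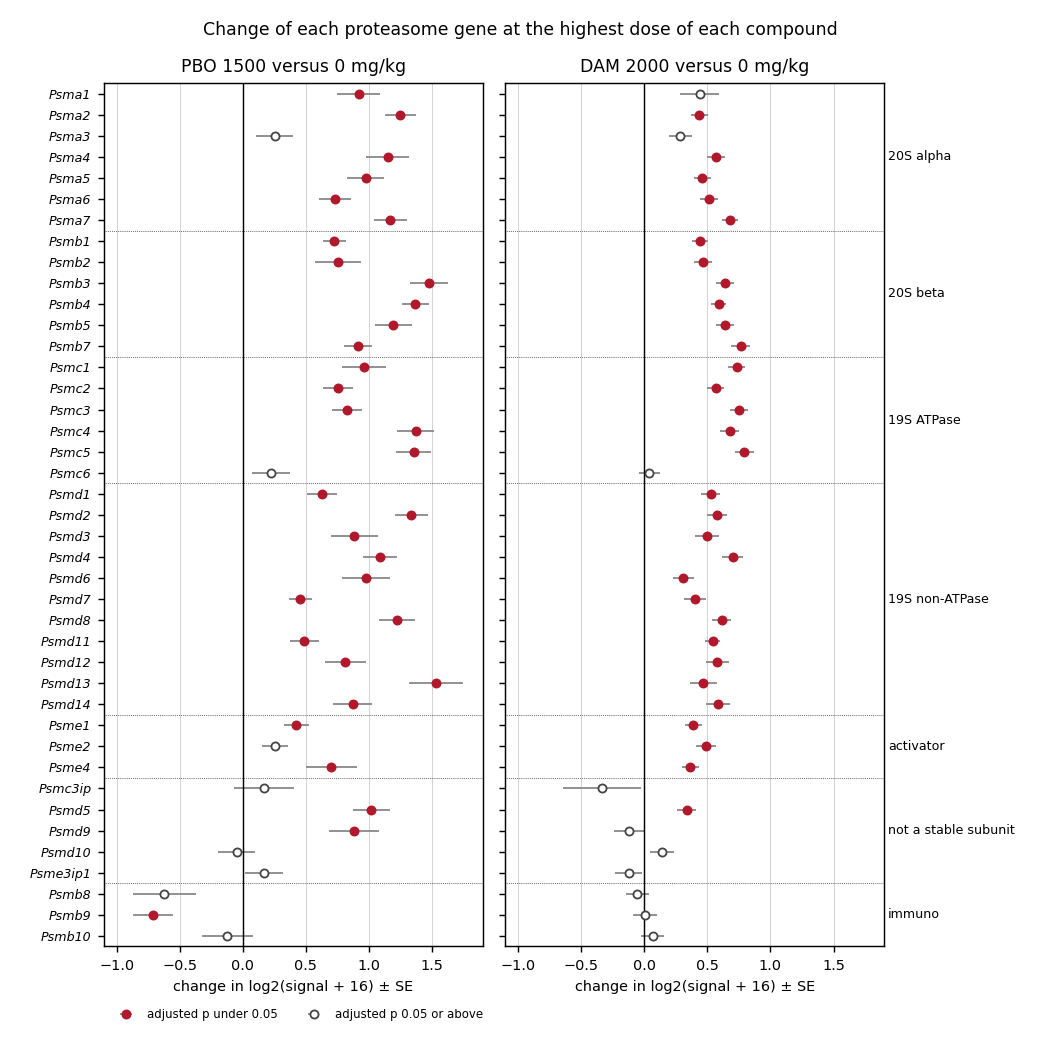
Change of each proteasome gene at 1500 mg/kg PBO (left) and 2000 mg/kg DAM (right) against the study's own controls, in log2(signal + 16) with the standard error of the limma fit (3 animals per group; filled points, adjusted p under 0.05 over all probe sets). The standard subunits lie to the right of 0 in both panels, with open points for Psma3 and Psmc6 in both and for Psma1 with DAM, and Psmb9 is the only filled point to the left.

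At the highest doses the median change of the 3 activators was smaller than that of the standard subunits. It was 0.42 against 0.94 with PBO, and 0.39 against 0.57 with DAM. The activator changes, 0.25 to 0.70 and 0.36 to 0.49, lay within the range of the standard subunits. Psme1 and Psme2 encode the subunits of the interferon-inducible 11S ring. Psme1 read 11107, 10995 and 12707 without PBO, 14100.4, 14699 and 16356 at 500 mg/kg, 15749, 15385 and 14082 at 1000 mg/kg, and 15103, 15737 and 15802 at 1500 mg/kg. In the DAM study it read 9434, 9808 and 10564 on the basal diet, 12338, 12596 and 12975 at 800 mg/kg, and 13502, 13271 and 12232 at 2000 mg/kg. All dosed groups of both studies lay above their controls, and the PBO dose groups overlapped one another. The changes of Psme1 were 0.42 ± 0.10 (1.34-fold, adjusted p = 0.01) with PBO and 0.39 ± 0.07 (1.31-fold, adjusted p = 0.00255) with DAM. Psme2 had PBO signals of 3896, 4212 and 4051 without PBO, 3811, 3911 and 4303 at 500 mg/kg, 4721, 4571 and 4044 at 1000 mg/kg, and 5215, 4986 and 4349 at 1500 mg/kg. Its DAM signals were 3607, 3854 and 3954 on the basal diet, 4728, 4558 and 4716 at 800 mg/kg, and 5509, 5829.9 and 4768 at 2000 mg/kg. Only 1500 mg/kg PBO stood apart from the PBO controls, whereas the DAM groups were apart at every step. The PBO change of 0.25 ± 0.11 did not pass (adjusted p = 0.121), and the DAM change of 0.49 ± 0.08 did (adjusted p = 0.00161); the difference between the 2 effects was -0.24 ± 0.13 and did not pass (adjusted p = 0.347).

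Psme4 encodes a large single-chain activator of the core. Its PBO signals were 2092, 1863 and 2728 without PBO, 2851, 2278 and 2048 at 500 mg/kg, 2672, 3072 and 2888 at 1000 mg/kg, and 3212, 2912 and 4934 at 1500 mg/kg. With DAM they were 3041, 2905 and 2986 on the basal diet, 3538, 3987 and 3812 at 800 mg/kg, and 3817, 3887 and 3803 at 2000 mg/kg. The controls and lower doses of PBO overlapped, and PBO 1500 replicate 3 was far above the rest. The change was 0.70 ± 0.20 with PBO (adjusted p = 0.029) and 0.36 ± 0.07 with DAM (adjusted p = 0.0038). Leaving out PBO 1500 replicate 3 ended the PBO call (0.47, adjusted p = 0.0645), as did leaving out control 1 (0.67, adjusted p = 0.0891) or control 2 (0.58, adjusted p = 0.11).

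The immunoproteasome genes did not follow the standard subunits. Psmb8, Psmb9 and Psmb10 encode the interferon-inducible replacements of Psmb5, Psmb6 and Psmb7. Psmb9 fell at 1000 and 1500 mg/kg PBO. Its signals were 2842, 2679 and 2626 in the controls, 1855, 1975 and 2251 at 500 mg/kg, 1463, 1795 and 1108 at 1000 mg/kg and 1756, 1726 and 1475 at 1500 mg/kg. Its DAM signals were 3748, 4476 and 3796 on the basal diet, 4469, 4547 and 3914 at 800 mg/kg, and 4055, 4406 and 3610.0 at 2000 mg/kg. Every PBO-dosed animal lay below every control, 1000 and 1500 mg/kg overlapped, and all DAM groups overlapped. The fall was -0.92 ± 0.16 (SE, adjusted p = 0.00717) at 1000 mg/kg and -0.71 ± 0.16 (adjusted p = 0.00808) at 1500 mg/kg, and both calls held without each array of the compared groups in turn. The DAM change was 0.01 ± 0.10 (adjusted p = 0.978).

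Psmb8 read 2776, 2702 and 2946 without PBO, 2031, 1951 and 3279.6 at 500 mg/kg, 2352, 2224 and 1982 at 1000 mg/kg, and 2494, 2069.6 and 1159 at 1500 mg/kg. In the DAM study it read 5633, 6797 and 5703 on the basal diet, 6040.4, 6013 and 5881 at 800 mg/kg, and 6356, 5950.5 and 5141 at 2000 mg/kg. The groups at 1000 and 1500 mg/kg PBO lay below the controls, 500 mg/kg overlapped them, and the DAM groups overlapped throughout. The change at 1500 mg/kg was -0.62 ± 0.25 and did not pass (adjusted p = 0.105). It was -0.30 (adjusted p = 0.306) without PBO 1500 replicate 3, and -0.85 (adjusted p = 0.0347) without PBO 1500 replicate 1. Psmb10 signals were 1449.9, 1153 and 963 without PBO, 1066, 1117 and 1574 at 500 mg/kg, 1190.4, 1166 and 1129 at 1000 mg/kg, and 1256, 1219 and 809.8 at 1500 mg/kg. Its DAM signals were 784, 743 and 748 on the basal diet, 728, 772 and 697 at 800 mg/kg, and 875, 739.6 and 776 at 2000 mg/kg. No group of Psmb10 stood apart from another within a study, and its changes were -0.12 ± 0.20 and 0.07 ± 0.09. None of the 3 genes passed as higher in any comparison with a control.

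Markers of immune cells, which are rich in immunoproteasome, moved in the same livers. At the highest doses, 9.26% of all probe sets were lower with PBO and 6.11% with DAM. At 1500 mg/kg PBO, 3 of 9 measured macrophage markers fell (7 had an unadjusted p under 0.05 downward and none upward), among them C1qa (-1.88 ± 0.50) and the Kupffer cell lectin Clec4f (-1.61 ± 0.39). Their summed signal was 14689 to 17175 in the PBO controls and 2660 to 11601 at 1500 mg/kg, and no listed marker was at 0. The macrophage count was 0 to 7 when 1 array was left out, and C1qa was -1.09 and Clec4f -1.02 without PBO 1500 replicate 3. The C1qa call was lost without any one of the PBO controls, and that of Clec4f without PBO 0 replicate 1. Of 8 T and NK cell markers, only 2 passed the filter, Gzmb and Prf1, and both fell (-1.78 ± 0.38 and -2.03 ± 0.48); the changes were -0.95 and -1.19 with log2(signal + 64), the call of Prf1 was lost without PBO 0 replicate 1, where Gzmb did not pass the filter, and the summed signal of the 8 was 548 to 790 in controls and 187 to 299 at 1500 mg/kg. The 3 measured B cell markers summed to 3006 to 3658 and 436 to 3168, and neither of the 2 tested passed. At 2000 mg/kg DAM, 1 of 9 macrophage markers fell, with sums of 14497 to 16064 in controls and 11463 to 13875 in dosed animals. The part of these cells in the values of Psmb8 and Psmb9 was not tested.

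Of 16 measured genes of interferon response and antigen processing, 1 rose and 2 fell at 1500 mg/kg PBO, and 1 rose and 4 fell at 2000 mg/kg DAM. Among all probe sets, 8.08% were higher and 9.26% lower at that PBO dose, and 6.22% and 6.11% at that DAM dose. With 1 array left out the counts of genes that fell were 1 to 4 with PBO and 1 to 3 with DAM. Tapbp, which loads peptides onto class I molecules, rose with both compounds (1.51 ± 0.14 and 0.69 ± 0.08, adjusted p = 2.38e-05 and 0.000139). Irf8, a transcription factor of myeloid cells, fell with both (-1.19 ± 0.26 and -0.59 ± 0.15). Its DAM call was lost without DAM 0 replicate 2 or 3 or DAM 2000 replicate 1. Ifngr1, an interferon gamma receptor chain, fell by 0.50 with PBO, a call lost in 4 of the 6 fits with 1 array left out. Psmb8 and Psmb9 flank the peptide transporter gene Tap1 in the RefSeq annotation of the rat GRCr8 assembly, with Tap2 on the other side of Psmb8. Tap1 had a PBO change of 0.31 ± 0.27 (adjusted p = 0.474) and Tap2 of -0.16 ± 0.18 (adjusted p = 0.586), and these 2 genes were named for their position after their values were seen.

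**Figure D3:**
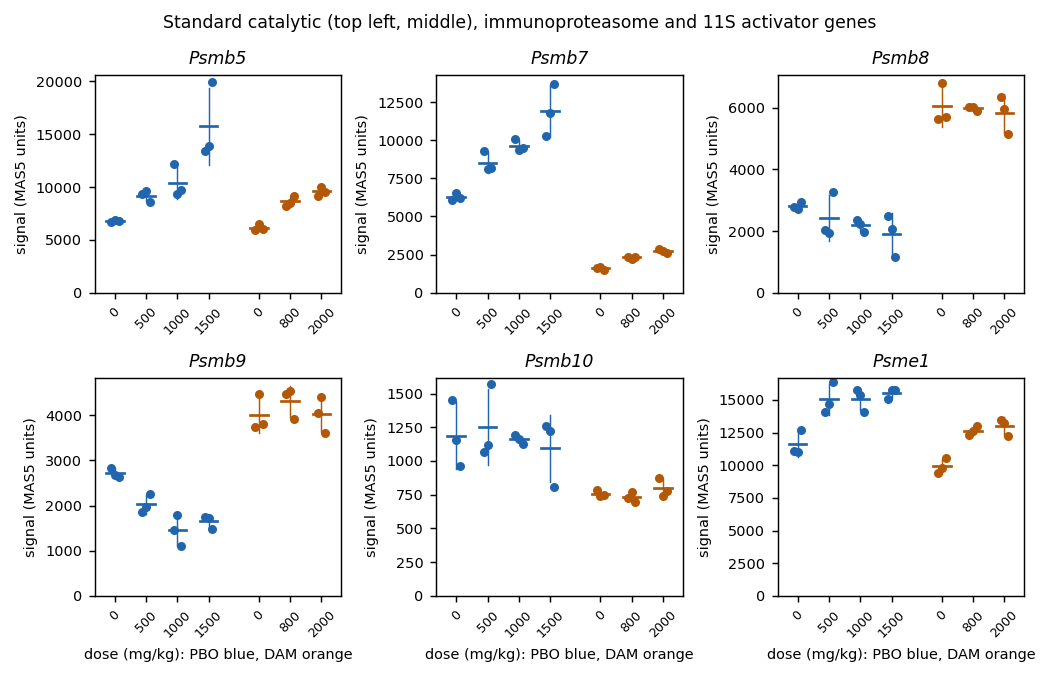
Signal of 2 standard catalytic genes (Psmb5, Psmb7), the 3 immunoproteasome genes and the activator Psme1 in each animal (points), with the group mean (bar) and SD (vertical line) of 3 animals, against dose; blue, PBO study, orange, DAM study, each panel with its own axis from 0. Psmb5 and Psmb7 climb with dose in both studies, Psmb9 declines with PBO, and Psmb10 shows no separated group.

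The 5 genes that are not stable subunits were divided. The base assembly chaperone Psmd5 rose with PBO (1.02 ± 0.14, adjusted p = 0.000486) and with DAM (0.34 ± 0.08, adjusted p = 0.0115). Psmd9, also a chaperone of the ATPase ring, rose with PBO (0.88 ± 0.20, adjusted p = 0.00879), from 1492, 1476 and 1429 to 2329.7, 2132 and 4013, with the last of these animals far above the rest. With DAM it changed by -0.12 ± 0.12 (adjusted p = 0.599), and a second, dimmer Psmd9 probe set changed by 0.08 with PBO (adjusted p = 0.848). Psmd10, the third chaperone of the base (gankyrin), had changes of -0.05 ± 0.15 and 0.14 ± 0.09. Psmc3ip, a partner protein known from meiotic recombination, and Psme3ip1, which binds the nuclear activator, had changes of 0.17 and 0.17 with PBO and -0.33 and -0.12 with DAM, and neither passed. The DAM change of Psmc3ip was -0.11 without DAM 2000 replicate 1 and -0.51 without DAM 0 replicate 2.

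The rise grew with the dose of PBO. At 500 mg/kg no gene passed in limma (smallest adjusted p = 0.0508, for Psmb4 at 0.54 ± 0.11), where 0.349% of all probe sets were higher and 0.129% lower. At an unadjusted p under 0.05, 11 genes were higher and 1 lower, against 4.57% and 5.41% of all probe sets. The median change was 0.20 against -0.04 for all probe sets, and 23 genes had all dosed animals above all controls (8.57% of all probe sets) while 1 had them below (11.6%). At 1000 mg/kg, 15 genes rose and Psmb9 fell, where 1.88% and 1.23% of all probe sets did so, with a median change of 0.48 against -0.05. Under median scaling the share of higher among all calls went from 73.0% to 84.1% at 500 mg/kg and from 60.4% to 80.5% at 1000 mg/kg. Groups did not overlap for 31 genes upward and 2 downward (12% and 15.5%). All 15 were standard subunits, led by Psmb3 (1.00 ± 0.15, 2-fold), Psmd2 (0.87 ± 0.13), Psmd13 (0.85 ± 0.21) and Psmb4 (0.84 ± 0.11). Only Psmb3, Psmb4, Psmb9 and Psmd2 held their call at 1000 mg/kg without each array in turn, where 5 to 9 genes passed. Leaving out PBO 1500 replicate 3, which enters this fit through the pooled spread alone, gave 28 genes at 1000 mg/kg and 7 at 500 mg/kg.

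Between 500 and 1500 mg/kg PBO, 27 genes rose (3.75% of all probe sets higher and 3.6% lower), and the median change of the 41 was 0.59. No gene passed as lower in limma. At an unadjusted p under 0.05, 34 were higher and 0 lower, against 10.8% and 12.1% of all probe sets. Groups did not overlap for 33 genes upward and 1 downward (12.3% and 12.9%). Without PBO 500 replicate 1 or 2, 17 or 16 genes passed. Over all 4 doses, 32 genes had a rising linear trend and Psmb9 a falling one (7.92% and 8.84% of all probe sets), with a median slope of 0.28 per 500 mg/kg. The share of higher among all trend calls went from 47.2% to 65.7% under median scaling. Group means rose at every PBO step for 32 genes and fell at every step for 1, against 10.2% and 13.5% of all probe sets. The steepest slopes were those of Psmd13 (0.51 ± 0.07), Psmb3 (0.49 ± 0.05), Psmc4 (0.45 ± 0.05), Psmc5 (0.44 ± 0.05), Psmb4 (0.44 ± 0.04) and Psmd2 (0.44 ± 0.04), each per 500 mg/kg. Comparisons within the PBO study share their control animals, so their values stand side by side and are not independent.

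Most of the 41 genes passed at the lower dose of DAM as well as at the higher. At 800 mg/kg, 28 genes rose (2.16% of all probe sets higher, 1.62% lower). The median change of the 41 was 0.35 against -0.02, and groups did not overlap for 30 genes upward (9.95% of all probe sets). The share of higher among all calls went from 57.2% to 73.3% under median scaling. In limma no gene passed as lower, and at an unadjusted p under 0.05, 31 were higher and 0 lower, against 7.66% and 8.32% of all probe sets. The largest changes at 800 mg/kg were those of Psmc5 (0.59 ± 0.08, 1.51-fold), Psmb7 (0.54 ± 0.08) and Psmc1 (0.52 ± 0.07). With 1 array left out, 12 to 24 genes passed at 800 mg/kg (17 without DAM 800 replicate 2 and 12 without replicate 3), and 12 of the 28 calls, among them those of Psma7, Psmb5, Psmb7, Psmc1, Psmc3, Psmc5 and Psmd8, held in every such fit. Group means rose at both DAM steps for 34 genes and fell at both for 2, against 22.1% and 27.2% of all probe sets. Both DAM doses share their controls.

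Animal by animal, the median change of the 41 genes from the control mean was 0.21, 0.20 and 0.24 at 500 mg/kg PBO, 0.44, 0.40 and 0.53 at 1000 mg/kg, and 0.70, 0.65 and 1.16 at 1500 mg/kg. Control animals lay between -0.04 and 0.03. No median of a higher PBO dose was below one of a lower dose, and PBO 1500 replicate 3 stood above all others. That animal had the highest PBO signal for 31 of the 41 genes and for 28 of the 30 standard subunits. Without it, 33 genes passed at 1500 mg/kg, 32 of them higher, with Psme2 passing in place of Psme4, and the median change was 0.68. In the DAM study the medians were 0.30, 0.37 and 0.39 at 800 mg/kg and 0.50, 0.51 and 0.47 at 2000 mg/kg, with controls between -0.01 and 0.02. Animals of the same DAM dose lay close together and the groups did not overlap.

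The difference between the effects of 1500 mg/kg PBO and 2000 mg/kg DAM was tested in a fit of both studies. The doses, durations and strains differ, so this sets the studies side by side and does not compare the compounds at matched exposure. The difference, PBO minus DAM, passed as positive for 9 genes and as negative for Psmb9 (2.14% and 2.77% of all probe sets). The median difference was 0.29 against -0.04. Psmb4 (0.77 ± 0.12, adjusted p = 0.00118), Psma2 (0.81 ± 0.14, adjusted p = 0.00242), Psmd2 (0.76 ± 0.15, adjusted p = 0.00727) and Psmb3 (0.83 ± 0.17, adjusted p = 0.00865) held this call in every alternative and with each array left out. For Psmc3 (0.07 ± 0.14), Psmb7 (0.15 ± 0.13), Psmd11 (-0.06 ± 0.13) and Psme1 (0.04 ± 0.12) the difference did not pass. Across the 41 genes the PBO and DAM changes, which have separate controls, correlated with r = 0.71 and rho = 0.66, and across the 30 standard subunits with r = 0.56 and rho = 0.46, as a description over genes measured in the same libraries. The PBO change, taken with its sign, was the larger in 34 of 41 genes.

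**Figure D4:**
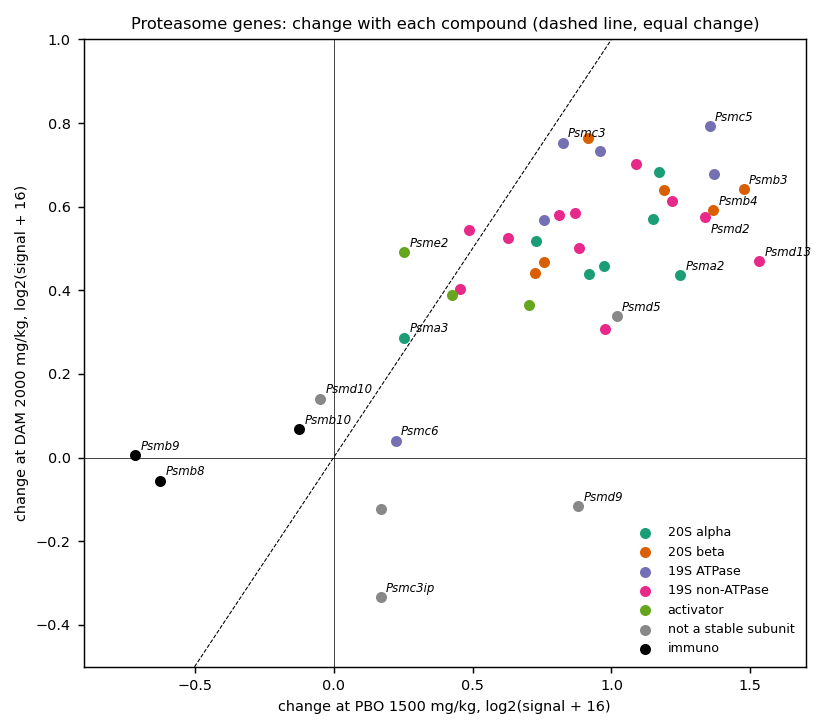
Change at 1500 mg/kg PBO (horizontal) against change at 2000 mg/kg DAM (vertical) for the 41 genes, in log2(signal + 16), coloured by role; on the dashed line both changes are equal. Most genes lie right of the line, the cap ATPase gene Psmc3 and the beta gene Psmb7 lie near it, and Psmb8 and Psmb9 lie at the left, near 0 on the DAM axis.

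Other probe sets of the same genes bear on single values. Of 14 further probe sets for 9 genes, 10 passed the filter, and 4 of these were higher at 1500 mg/kg PBO and 5 at 2000 mg/kg DAM. For Psmd14 the other tested probe sets changed by 1.36 and 0.73 with PBO, beside 0.87 for the chosen one. The second Psmd7 probe set changed by 0.91, beside 0.46. For Psme4 the others changed by 0.86 (adjusted p = 0.00878) and 0.44 (adjusted p = 0.0766), beside 0.70. The other tested Psmd11 probe set changed by 0.41 with PBO and missed the threshold (adjusted p = 0.0652).

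Promoter windows of 300 bases around the start site that the promoter table uses (250 before, 50 after) were matched for 37 of the 41 genes in the RefSeq table for the rat GRCr8 assembly. Windows for Psma7, Psmd6, Psmd12 and Psmd14 were not found by gene ID. The antioxidant response core TGACNNNGC, to which Nfe2l1 and its relatives bind, was present on either strand in 7 windows (18.9%), against 12.1% of all 33469 windows. The 7 genes were Psma3, Psmb2, Psmb5, Psmd1, Psmd3, Psmd9 and Psme4. Of these, Psmb2, Psmb5, Psmd1, Psmd3 and Psme4 passed as higher at both highest doses, Psmd9 with PBO alone and Psma3 with neither. The CCAAT box was present in 20 windows (54.1%), against 37.5%. The interferon response core (GAAA, any 2 bases, GAAA) was present in 6 (16.2%), against 3.92%, namely those of Psma4, Psmb3, Psmb8, Psmb10, Psmd7 and Psme2, and thus in genes that rose as well as in immunoproteasome genes. The motifs overlapped only in Psmb2, where a CCAAT box ends on the first base of the TGAC core. These matches describe letters in the windows and not bound sites. Stretches of 5 windows are shown because they set a standard catalytic gene and a strongly rising gene beside the interferon-type genes, 5′ to 3′ on the gene's own strand and ending just before the table's start site (that of Psmb8 ends 6 bases after it), with the matched motif in capitals; in Psmb8 the motif lies on the opposite strand and reads as its reverse complement. For Psme2 the annotated gene begins farther out than this start site, so that its stretch lies within the gene's annotated span, as does the end of the Psmb8 stretch.
Psmb5, chr15:32047380-32047479, minus strand: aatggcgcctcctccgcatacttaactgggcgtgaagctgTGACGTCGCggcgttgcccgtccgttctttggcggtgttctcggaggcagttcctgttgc
Psmb3, chr10:83193687-83193786, plus strand: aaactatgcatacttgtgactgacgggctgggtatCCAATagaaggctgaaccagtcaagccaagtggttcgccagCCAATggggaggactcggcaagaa
Psmb8, chr20:4657026-4657131, minus strand: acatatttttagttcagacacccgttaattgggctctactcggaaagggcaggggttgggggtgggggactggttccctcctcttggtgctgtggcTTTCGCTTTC
Psmb10, chr19:50743293-50743392, minus strand: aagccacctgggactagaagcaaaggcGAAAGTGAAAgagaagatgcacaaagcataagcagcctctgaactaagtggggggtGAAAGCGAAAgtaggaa
Psme2, chr15:33052752-33052851, minus strand: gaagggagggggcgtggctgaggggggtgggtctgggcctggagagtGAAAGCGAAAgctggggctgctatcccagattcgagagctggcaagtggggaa
Capitals mark TGACNNNGC in Psmb5, CCAAT in Psmb3 and the interferon response core in the other 3. Other motif matches are not marked. In Psmb8 a CCAAT box on the opposite strand (-73 to -69) stays in lower case. The interferon response core of Psmb3 (-143 to -134) lies outside its stretch.

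Genes that build and regulate the proteasome rose as well, where 8.08% of all probe sets were higher with PBO and 6.22% with DAM. Of 14 measured genes of this list, 8 rose at 1500 mg/kg PBO and 9 at 2000 mg/kg DAM; no member passed as lower in limma, nor at an unadjusted p under 0.05. Adrm1, a ubiquitin receptor of the cap, changed by 1.46 ± 0.16 and 0.77 ± 0.11 (SE, adjusted p = 6.31e-05 and 0.00069). Usp14, a deubiquitinase that binds the cap, changed by 1.43 ± 0.15 and 0.67 ± 0.07 (adjusted p = 5.4e-05 and 4.26e-05), and Pomp, the maturation factor of the core, by 0.73 ± 0.08 and 0.47 ± 0.07 (adjusted p = 0.000109 and 0.000856). Ecpas, a scaffold of the 26S particle, changed by 0.61 and 0.41. Psmf1, an inhibitor of the core, rose with PBO (0.36 ± 0.10, adjusted p = 0.0283), a call lost without PBO 0 replicate 1 or 2 or PBO 1500 replicate 1, and its DAM change of 0.15 ± 0.08 did not pass.

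Of 17 shuttle and segregase genes, which extract and carry ubiquitylated substrates, 10 rose with PBO (11 upward and none downward at an unadjusted p under 0.05) and 8 with DAM (10 and 1). With 1 array left out the PBO count of genes that rose was 4 to 10 (6 without PBO 1500 replicate 3) and the DAM count 5 to 7. Without PBO 1500 replicate 3, 1 of the 17 genes also passed as lower. The signals of Zfand2a, a stress-induced proteasome partner, were 28.4 to 156 in PBO controls and, from lowest to highest, 478, 511 and 4059 at 1500 mg/kg, so 1 animal lay far above the others. It changed by 3.25 ± 0.69 and 1.59 ± 0.15 (adjusted p = 0.00647 and 2.45e-05). The PBO call of Zfand2a was lost with the compared arrays alone (adjusted p = 0.0564). Ufd1 changed by 1.02 and 0.56, the shuttle Ubqln2 by 0.96 and 0.44, and Nsfl1c, a cofactor of the segregase Vcp, by 0.78 and 0.42. The DAM call of Nsfl1c was lost in 5 of the 6 fits with 1 array left out. Of 12 ubiquitin and enzyme genes, 2 rose and 2 fell with PBO and 1 rose with DAM, with medians of -0.10 and -0.04. Beside both lists stand 8.08% of all probe sets higher and 9.26% lower with PBO, and 6.22% and 6.11% with DAM. The conjugating enzymes Ube2l3 (0.74 ± 0.11) and Ube2k (0.72 ± 0.15) rose with PBO while Ube2n (-0.71 ± 0.12) and the activating enzyme Uba6 (-0.78 ± 0.21) fell. The call of Uba6 was lost without any one of the PBO controls, and its change was -0.48 without PBO 1500 replicate 3.

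Of the 11 measured regulators of proteasome genes, 10 were tested, and 1 rose with each compound. At the highest doses 8.08% of all probe sets were higher with PBO and 6.22% with DAM. Nfe2l1 rose at 1500 mg/kg PBO (1.02 ± 0.23, adjusted p = 0.0101), after 0.14 ± 0.23 at 1000 mg/kg and 0.30 ± 0.23 at 500 mg/kg that did not pass. The PBO call of Nfe2l1 was lost with the compared arrays alone (adjusted p = 0.0538). With DAM its change was 0.05 ± 0.12 (adjusted p = 0.846). The gene that rose with DAM was Keap1 (0.39 ± 0.10, adjusted p = 0.0175), the repressor of Nfe2l2, named here after its value was seen. The Keap1 call was lost without DAM 0 replicate 1 or DAM 2000 replicate 2. Nfe2l2, the regulator of oxidative stress genes, had changes of -0.21 ± 0.21 and -0.12 ± 0.13, and neither passed. Activity of these factors is set largely after transcription, so their transcript values are given as such.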

How the data were processed

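Liver RNA of 21 rats was measured on 1-colour Affymetrix Rat 230 2.0 arrays, 1 per animal. The authors deposited linear probe set intensity values. The submitters' processing notes name MAS5, with a version not given in the sources used here. Gene symbols came from the platform annotation, and 6 probe sets whose symbol is shared with another gene were left out. Here log2(signal + 16) was fitted in limma 3.58.1 (R 4.3.3) with an intensity trend, each study alone with all its arrays, over the 18625 probe sets whose mean passed the 40th percentile. P-values were Benjamini-Hochberg adjusted over all of them, with a threshold of 0.05. They set each change against the spread between animals, pooled over the arrays of the fit and moderated over probe sets. The difference between studies was fitted over all 21 arrays. The fits were tested on simulated data. Fold changes are on the log2(signal + 16) scale, which understates changes of low signals.

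Members and gene lists were chosen with earlier results of these data known. Values by animal are given for the 8 genes with the smallest adjusted p at 1500 mg/kg PBO, the 4 at 2000 mg/kg DAM, the catalytic and immunoproteasome genes, the activators and any gene that moved against the majority. Of each other list, up to 4 genes with the smallest adjusted p at 1500 mg/kg PBO are named, with Nfe2l1, Nfe2l2, Psmf1, Adrm1 and Pomp. Alternatives were pseudocounts of 1 and 64, no filter and a 60th percentile filter, median and quantile scaling, no intensity trend, the compared arrays alone, another probe set rule, a replicate block, and each array left out. The arrays carry no count of molecules, so their number, 3 per group, limits the precision. Python 3.11.15 with pandas 2.3.3 and matplotlib 3.10.9 made the tables and plots.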

Additional observations from a re-analysis of the deposited data

Results flagged for a closer look

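For 10 of the 41 genes the effect of 1500 mg/kg PBO differed from that of 2000 mg/kg DAM in the limma fit of both studies, at an adjusted p under 0.05. The differences (PBO minus DAM, log2 scale) were 1.06 for Psmd13, 1.00 for Psmd9, 0.83 for Psmb3, 0.81 for Psma2, 0.77 for Psmb4, 0.76 for Psmd2, 0.69 for Psmc4, 0.68 for Psmd5, 0.61 for Psmd8 and -0.72 for Psmb9. Compound, dose, days, strain and storage differ together here and cannot be told apart. The calls of Psma2, Psmb3, Psmb4 and Psmd2 held in every alternative and with each array left out, and those of the other 6 did not. That of Psmb9 was lost in 8 of the 12 fits with 1 array left out, where its difference was -0.64 to -0.74.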

How the results depend on the processing

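No proteasome gene that passed changed direction under any alternative or left-out array that was run. At 1500 mg/kg PBO 28 of 33 calls, at 2000 mg/kg DAM 28 of 31 and for the PBO trend 31 of 33 held under every alternative. With the compared arrays alone, the 1500 mg/kg PBO calls of Psmb2, Psmd9, Psmd11, Psme1 and Psme4 were lost (limma adjusted p = 0.0573 to 0.105). Counts at lower doses moved more. At 500 mg/kg PBO, 1 gene passed with log2(signal + 64), 1 with the 60th percentile filter, 1 with median scaling and 5 with the compared arrays alone. At 1000 mg/kg PBO, 4 passed without the intensity trend, 25 with the compared arrays alone and 5 to 9 with 1 array left out. Without PBO 1500 replicate 3, an alternative chosen after seeing the data, 7 passed at 500 mg/kg and 28 at 1000 mg/kg. Between 1500 and 500 mg/kg, 16 passed without the trend, 8 with the compared arrays alone and 16 to 30 with 1 array left out. At 800 mg/kg DAM, 7 passed without the trend and 12 to 24 with 1 array left out. For the difference between studies, 5 passed without the trend, 5 with the compared arrays alone and 5 to 16 with 1 array left out (16 without PBO 1500 replicate 2). The causes were not tested. Median changes with 1 array left out were 0.68 to 0.93 at 1500 mg/kg PBO, 0.43 to 0.73 between 1500 and 500 mg/kg and 0.22 to 0.30 for the trend. Median scaling gave 0.42 at 800 and 0.60 at 2000 mg/kg DAM. The compared-arrays fit could not be made for the trend, which uses all PBO arrays. Replicate numbers did not pair the animals (correlations of same-numbered animals -0.07 to 0.03 in the PBO study, -0.06 to 0.10 in the DAM study). With the replicate block, 0, 13 and 33 genes passed at 500, 1000 and 1500 mg/kg PBO, 25 between 1500 and 500 mg/kg, 33 for the trend, 25 and 31 at 800 and 2000 mg/kg DAM and 9 for the difference; Psma1 also passed at 2000 mg/kg DAM (0.44, adjusted p = 0.0476).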

Other observations

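Other protein quality control genes were measured in the same livers. At the highest doses, 8.08% of all probe sets were higher and 9.26% lower with PBO, and 6.22% and 6.11% with DAM. Of 17 chaperone genes, 9 rose at 1500 mg/kg PBO and 10 at 2000 mg/kg DAM in limma, and 6 to 9 and 3 to 9 with 1 array left out. None passed as lower, with 0 and 1 lower at an unadjusted p under 0.05. The small heat shock protein gene Hspb1 went from 413 to 610 in PBO controls to 1909 to 5398 at 1500 mg/kg (2.45 ± 0.33, SE, limma adjusted p = 0.000309) and changed by 0.92 with DAM. Cct8, a subunit of the cytosolic chaperonin, changed by 0.68 and 0.30, St13, a cochaperone, by 0.53 and 0.21, and the mitochondrial chaperonin Hspd1 by 0.53 with PBO. With DAM the call of Cct8 was lost in 4 and that of St13 in 5 of the 6 fits with 1 array left out.

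Of 14 autophagy and lysosome genes, 5 rose with PBO and 3 with DAM, and none passed as lower in limma or at an unadjusted p under 0.05. The shares of all probe sets at these doses were those given beside the chaperones. Ctsd, a lysosomal protease, went from 2177 to 2594 in PBO controls to 9371 to 11764 at 1500 mg/kg (2.15 ± 0.13, limma adjusted p = 5.28e-07) and changed by 0.71 with DAM. The autophagosome gene Map1lc3a changed by 0.91 and 0.64, the protease gene Ctsl by 0.73 with PBO, and the lysosomal membrane gene Lamp1 by 0.64 with PBO. The Map1lc3a call with DAM was lost without DAM 2000 replicate 2 (adjusted p = 0.0505).

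Marker lists of other cells gave these counts at 1500 mg/kg PBO, where 8.08% of all probe sets were higher and 9.26% lower. All 3 measured erythroid markers fell (Hbb -1.70, Alas2 -1.59, Slc4a1 -1.70), 2 of 7 hepatocyte markers fell (Cps1 -0.78, Fgb -0.63), 1 of 4 endothelial and 2 of 5 stellate markers fell, and 1 of 2 tested cholangiocyte markers, Epcam, rose (2.06). The median change of the 3 measured cholangiocyte markers was -0.31, so the rest of that list did not rise with Epcam. The Slc4a1 call was lost without PBO 0 replicate 1 or 2 or PBO 1500 replicate 1, and its change was -1.0 with log2(signal + 64). The Fgb call was lost without PBO 0 replicate 3. With 1 array left out, 0 to 2 stellate and 1 to 4 hepatocyte markers fell. Without PBO 1500 replicate 3, 1 stellate marker passed as higher and 2 as lower. Epcam also rose with DAM (1.37), where 2 of 5 stellate markers fell (1 to 2 with 1 array left out) and 1 of 7 hepatocyte markers rose (1 to 2). The median of the 3 measured cholangiocyte markers was -0.04 with DAM. At 2000 mg/kg DAM, 6.22% of all probe sets were higher and 6.11% lower. The part of these cells in the proteasome values was not tested.

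Undosed levels of Psmb7 and Psmb8 did not overlap between the studies, and these genes are given as examples. Neither the number of such members nor the share among all probe sets was counted. On its own probe set, Psmb7 read 6104 to 6537 in undosed Sprague-Dawley rats and 1488 to 1691 in undosed Fischer344 rats, and Psmb8, on another, read 2702 to 2946 and 5633 to 6797. Strain, storage, diet and duration cannot be told apart here. The log2 ratio of 3' to 5' signal for Gapdh also differed between these undosed animals. It was 0.178 to 0.227 in the PBO study and 0.694 to 0.802 in the DAM study, and its part was not tested.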
